A study of Mus musculus with 34 samples.

Results

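CHK1, the kinase that halts the cell cycle when DNA replication is disturbed, was put into mouse zygotes as injected mRNA, and the genes described here are Chek1 itself and the kinases, partners and sensors that act with it or ahead of it. The 10 genes were chosen by name: the effector kinases Chek1 and Chek2, the apical kinases Atr and Atm, the ATR partner Atrip, the mediator Clspn, the ATR activator Topbp1, the clamp loader subunit Rad17, and the clamp subunits Rad9a and Hus1. All 10 were found, among 49686 gene symbols in the zygote and late 2-cell tables and 51734 in the blastocyst table. Each library was made from 1 mouse embryo that had received mRNA for wild-type CHK1 (WT) or for CHK1 with the change R442Q. The WT groups held 5 zygotes, 4 late 2-cell embryos and 7 blastocysts, and the R442Q groups 6, 5 and 7. The zygotes and late 2-cell embryos had no inhibitor in their labels. All 14 blastocysts had been cultured with a CHK1 inhibitor at 30 nM, so no effect of the inhibitor can be read from them. Every group carried injected CHK1 mRNA, and an embryo without injection was not analysed here. The strain of the mice was not given, and nothing in the labels says whether embryos of a group came from separate litters or culture drops, so the p-values measure the spread between these embryos.

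When a replication fork stalls, single-stranded DNA coated with RPA draws in ATR through its partner ATRIP. The RAD17 clamp loader places the RAD9-HUS1-RAD1 ring at the junction with double-stranded DNA, TOPBP1 bound to the ring switches ATR on, and CLASPIN holds CHK1 so that ATR can phosphorylate it. ATM answers mainly to double-strand breaks and passes the signal to CHK2, and both branches act against the CDC25 phosphatases that start mitosis. In mammals the zygote relies on transcripts stored by the oocyte, which are degraded as the embryo's own genome becomes active, in the mouse mainly at the 2-cell stage.

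The position of the change is shown first, because every embryo carried one version or the other of this codon in its injected mRNA. In the mouse Chek1 transcript ENSMUST00000034625 (GENCODE M21, GRCm38), the arginine codon changed in R442Q is 1 of 476 and is in exon 12 of 13, on the minus strand at chr9:36712051-36712053. It is printed below with its neighbours, 5′ to 3′, with that codon in capitals.
Chek1 around the codon of R442Q: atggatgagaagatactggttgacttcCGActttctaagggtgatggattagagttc
The codon is the mouse gene's own. The sequence of the injected mRNA, and the species it was built from, are not given in the sources used here. The deposited values are per gene symbol, so WT and R442Q transcripts, and injected and embryonic Chek1, cannot be told apart.

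Of the 10 genes, 5 lay on chromosome 9: Chek1 (chr9:36708482-36727065, minus strand), Atm (chr9:53439149-53536740, minus), Atr (chr9:95857597-95951781, plus), Topbp1 (chr9:103305215-103350428, plus) and Atrip (chr9:109057933-109074124, minus). The others were Clspn (chr4:126556935-126593903, plus), Chek2 (chr5:110839979-110874145, plus), Hus1 (chr11:8993137-9011191, minus), Rad17 (chr13:100617164-100651051, minus) and Rad9a (chr19:4195196-4201662, minus). RefSeq start sites on GRCm38 were matched for 9 of the 10 genes. The 250 bases before the start are printed for 2 genes that rose from zygote to late 2-cell, Chek2 (chr5:110839733-110839982, plus strand) and Atm (chr9:53536672-53536921, minus), and for 2 that fell, Clspn (chr4:126556730-126556979, plus) and Hus1 (chr11:9011192-9011441, minus). They are written 5′ to 3′ on the gene's strand, and capitals mark matches, on either strand, to 4 kinds of short motif.
Chek2 promoter: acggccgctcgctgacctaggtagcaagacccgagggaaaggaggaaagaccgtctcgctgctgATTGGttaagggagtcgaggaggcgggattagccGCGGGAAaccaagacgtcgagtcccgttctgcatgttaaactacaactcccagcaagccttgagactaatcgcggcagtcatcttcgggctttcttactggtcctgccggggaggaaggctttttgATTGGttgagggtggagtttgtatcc
Atm promoter: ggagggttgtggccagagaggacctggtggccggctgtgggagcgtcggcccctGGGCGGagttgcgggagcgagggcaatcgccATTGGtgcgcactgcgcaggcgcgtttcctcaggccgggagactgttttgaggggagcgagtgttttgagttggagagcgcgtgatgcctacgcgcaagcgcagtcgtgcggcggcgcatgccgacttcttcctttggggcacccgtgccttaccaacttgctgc
Clspn promoter: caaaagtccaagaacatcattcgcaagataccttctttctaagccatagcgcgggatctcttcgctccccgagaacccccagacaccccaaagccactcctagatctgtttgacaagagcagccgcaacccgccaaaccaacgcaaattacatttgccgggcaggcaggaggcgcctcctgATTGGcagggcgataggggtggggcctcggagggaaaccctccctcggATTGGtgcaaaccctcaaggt
Hus1 promoter: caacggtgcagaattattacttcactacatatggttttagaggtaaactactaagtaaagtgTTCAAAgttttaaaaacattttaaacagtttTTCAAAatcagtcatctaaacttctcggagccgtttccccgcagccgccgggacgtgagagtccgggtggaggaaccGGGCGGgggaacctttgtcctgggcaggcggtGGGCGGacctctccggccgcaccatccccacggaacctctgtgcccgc
The motifs were the E2F core (searched as TTCCCGC and also as TTCGCGC, with TTGCCGC as a further form and TTGGCGC as the last), the CCAAT box (CCAAT), the GC box (GGGCGG) and the cell cycle homology region (TTTGAA). An E2F core was present in 2 of the 9 windows, Chek2 and Topbp1, against 7.89% of 32851 promoters of the same length. A CCAAT box was present in 4 of 9, Chek2, Atm, Atrip and Clspn, against 33.8%. A GC box was present in 4 of 9, Atr, Atm, Topbp1 and Hus1, against 32.7%. TTTGAA was present in 1, Hus1, against 16% of promoters. In Topbp1 the 2 E2F matches, on opposite strands, overlapped each other. These are letter matches and not measured sites.

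Total estimated counts were 7183632 to 11296522 per zygote and 5727956 to 8916343 per late 2-cell embryo, and the depth of the blastocysts in counts is unknown. Late 2-cell and trophectoderm markers separated the labelled stages. The summed FPKM (fragments scaled to transcript length and library size) of 7 late 2-cell markers was 23.1 to 120 in zygotes and 126 to 1970 in late 2-cell embryos, and that of 6 trophectoderm markers was at least 1249 in every blastocyst and at most 75.6 in earlier embryos. The other lists overlapped between stages. The 8 oocyte markers summed to 6874 to 8784 in zygotes and 1819 to 11007 in blastocysts, where Oog1 was at 0. In blastocysts only 2 of these 8 genes in WT and 1 in R442Q embryos had a mean FPKM of at least 1, against all 8 in zygotes. The 5 epiblast markers summed to 56.8 to 186 in zygotes, where 1 of them had a mean of at least 1, and 77.4 to 400.2 in blastocysts, where all 5 did. At the late 2-cell stage the genotypes were separated by general measures. The FPKM of all genes summed to 712234 to 742246 in WT and 814376 to 976830 in R442Q embryos, and 8 oocyte markers, all with a mean of at least 1, summed to 2712 to 3352 in WT and 4238 to 6668 in R442Q embryos. In zygotes 9 cumulus cell markers summed to 17.9 to 20.3 in WT and 12.1 to 16.03 in R442Q, with Amh at 0 and 1 gene of mean at least 1.

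Chek1 and Chek2, the effector kinases, changed places over the 3 stages, of which only the blastocysts had been cultured with the CHK1 inhibitor. Chek1, which carries the ATR signal, had 7387, 4822, 9079, 4759 and 4123 FPKM in the WT zygotes and 5290 to 6868 (median 6498) in the R442Q zygotes. It was between the 4th and the 16th most abundant gene in every zygote, and no other gene of the group came near it. At the late 2-cell stage it had 368, 344, 360 and 653 FPKM in WT and 253, 735, 905, 292 and 438 in R442Q embryos, still the highest of the group in all 9. In blastocysts it had 7.05 to 38.2 FPKM (median 19.4) in WT and 13.3 to 23.6 (median 18.5) in R442Q embryos. Since the libraries are whole embryos, fewer cells carrying a transcript and less of it per cell cannot be told apart.

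Chek2, the kinase downstream of ATM, ran the other way. It had 1.47, 6.57, 2.92, 1.90 and 4.19 FPKM in WT zygotes and 3.45 to 8.28 (median 4.67) in R442Q zygotes. It had 73.4, 84.2, 64.2 and 92.7 FPKM in WT and 66.3, 54.0, 91.3, 48.0 and 67.4 in R442Q late 2-cell embryos, above every zygote. In blastocysts it was the highest gene of the group in all 14 embryos, with 348 to 1055 FPKM (median 425) in WT and 670 to 1776 (median 935) in R442Q embryos. Its median rank within an embryo was 7942 in zygotes, 1681 in late 2-cell embryos and 255 of 51734 in blastocysts. Within embryos, Chek1 exceeded Chek2 734 to 5025 times in zygotes (median 1389) and 3.82 to 13.6 times in late 2-cell embryos (median 6.08). In blastocysts Chek2 exceeded Chek1, by 10.9 to 96.3 times (median 48.0). These are ratios of FPKM inside 1 library, so they do not depend on how the tables were scaled, but they depend on the transcript lengths assumed for each gene. Stage cannot be told apart from table, and the tables were normalised separately. In the blastocysts stage also cannot be told apart from the CHK1 inhibitor, for these kinases and for the genes described below.

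**Figure D1:**
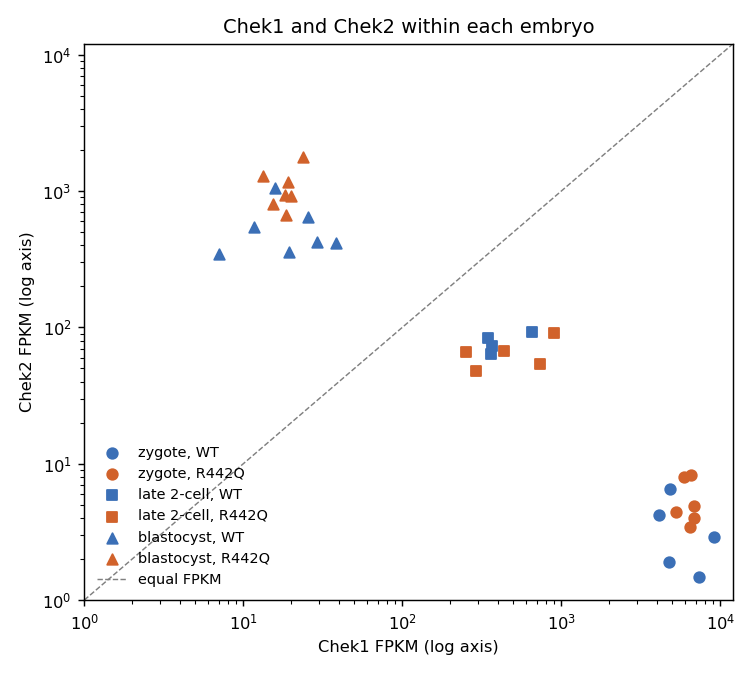
FPKM of Chek1 and Chek2 in each of the 34 embryos on log axes, with the marker shape giving the stage, the colour the injected CHK1 and the dashed line equal levels. The 11 zygotes have the most Chek1 and the least Chek2, and all 14 blastocysts have more Chek2 than Chek1. Only the blastocysts were cultured with the CHK1 inhibitor.

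Atr and Atm, the apical kinases, were both scarce in zygotes, and only Atm was higher at the later stages. Atr had 2.80, 4.17, 3.31, 2.72 and 2.90 FPKM in WT zygotes and 0.79 to 2.28 (median 1.10) in R442Q zygotes. In late 2-cell embryos it had 2.26, 0.55, 1.77 and 1.65 FPKM in WT and 0, 1.89, 5.74, 3.17 and 0.09 in R442Q embryos, and over the 9 embryos its SD was nearly as large as its mean (1.90 ± 1.78). The first of these R442Q embryos had 0 counts, which allows up to 0.518 CPM (counts scaled to library size). In blastocysts Atr had 1.30 to 5.88 FPKM (median 3.07) in WT and 0.27 to 2.30 (median 1.27) in R442Q embryos.

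Atm had 0.82, 3.16, 1.30, 2.45 and 0.41 FPKM in WT zygotes and 1.85 to 3 (median 2.33) in R442Q zygotes, a level like that of Atr. Late 2-cell embryos had 20.5, 26.3, 20.9 and 28.7 FPKM in WT and 41.7, 50.4, 36.6, 79.1 and 88.2 in R442Q embryos, above all zygotes and with no overlap between the genotypes on this scale. In blastocysts it had 4.32 to 10.9 FPKM (median 8.26) in WT and 3.77 to 18.2 (median 8.51) in R442Q embryos.

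Atrip, the subunit that brings ATR to coated single-stranded DNA, was above its partner in all 34 embryos. It had 5.22, 13.3, 5.71, 8.27 and 11.8 FPKM in WT and 5.63 to 12.3 (median 9.05) in R442Q zygotes. Late 2-cell embryos had 13.7, 13.8, 11.4 and 12.4 FPKM in WT and 25.5, 28.8, 50.2, 36.8 and 25.8 in R442Q embryos, with no overlap. In blastocysts it had 116 to 229 FPKM (median 167) in WT and 194 to 749 (median 389) in R442Q embryos, second only to Chek2 in all 14. Its ratio to Atr was 1.73 to 13.04 in zygotes (median 4.07), 28.3 to 144 in WT blastocysts and 221 to 1114 in R442Q blastocysts. Atrip shares 15.4% of its 50-base stretches of transcribed sequence with other genes. The gene sharing the most of them is Trex1, an exonuclease gene on the same strand. Trex1 itself was listed at 0 FPKM in all 4 WT late 2-cell embryos and at no more than 0.87 in the R442Q embryos, and reached 9.09 in WT and 7.48 in R442Q blastocysts.

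Clspn was the most abundant of the 10 genes in zygotes after Chek1. This mediator had 98.8, 163, 120, 86.0 and 102 FPKM in WT and 43.5 to 69.3 (median 52.3) in R442Q zygotes, and the groups did not overlap. At the late 2-cell stage it had 46.5, 42.8, 31.6 and 62.2 FPKM in WT and 41.3, 22.6, 14.6, 6.86 and 60.5 in R442Q embryos, which overlapped. In blastocysts it had 10.04 to 41.3 FPKM (median 20.9) in WT and 7.48 to 42.3 (median 24.5) in R442Q embryos.

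Topbp1, which activates ATR, and Rad17, which loads the clamp, varied less before the blastocyst. Topbp1 had 10.4 to 21.3 FPKM in zygotes of both genotypes and 20.01 to 60.8 in late 2-cell embryos. In blastocysts it had 31.7 to 78.0 FPKM (median 59.7) in WT and 63.1 to 251 (median 80.9) in R442Q embryos, where 1 embryo, replicate 7, lay far above the next at 106. Rad17 had 20.4 to 35.8 FPKM in zygotes and 15.4 to 56.0 in late 2-cell embryos. In blastocysts it had 6.75 to 11.6 FPKM (median 8.81) in WT and 3.46 to 12.5 (median 6.57) in R442Q embryos.

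Rad9a and Hus1, subunits of the same ring, had opposite courses. Rad9a was nearly absent from zygotes at 0.11 to 0.69 FPKM, had 17.2, 10.8, 8.23 and 14.7 FPKM in WT and 5.10, 11.2, 7.84, 12.2 and 9 in R442Q late 2-cell embryos, and 7.60 to 48.1 in blastocysts. Hus1 had 46.6, 55.9, 52.9, 36.1 and 47.0 FPKM in WT and 33.1 to 40.6 in R442Q zygotes, 12.6 to 31.0 in late 2-cell embryos, and 0 to 11.8 in blastocysts. Hus1 exceeded Rad9a in every zygote and late 2-cell embryo. The exons of Rad9a overlap those of Ppp1ca, a phosphatase subunit on the opposite strand, over 7.0% of its stretches, and whether the counting used strand is not stated. Ppp1ca rose by 0.66 on the log2 scale in WT and by 0.75 in R442Q embryos from zygote to late 2-cell. It had 25.3 to 56.5 FPKM in WT and 44.0 to 84.8 in R442Q late 2-cell embryos. In blastocysts it had 451 to 654 and 379 to 669 FPKM, and its part in the Rad9a values was not tested.

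**Figure D2:**
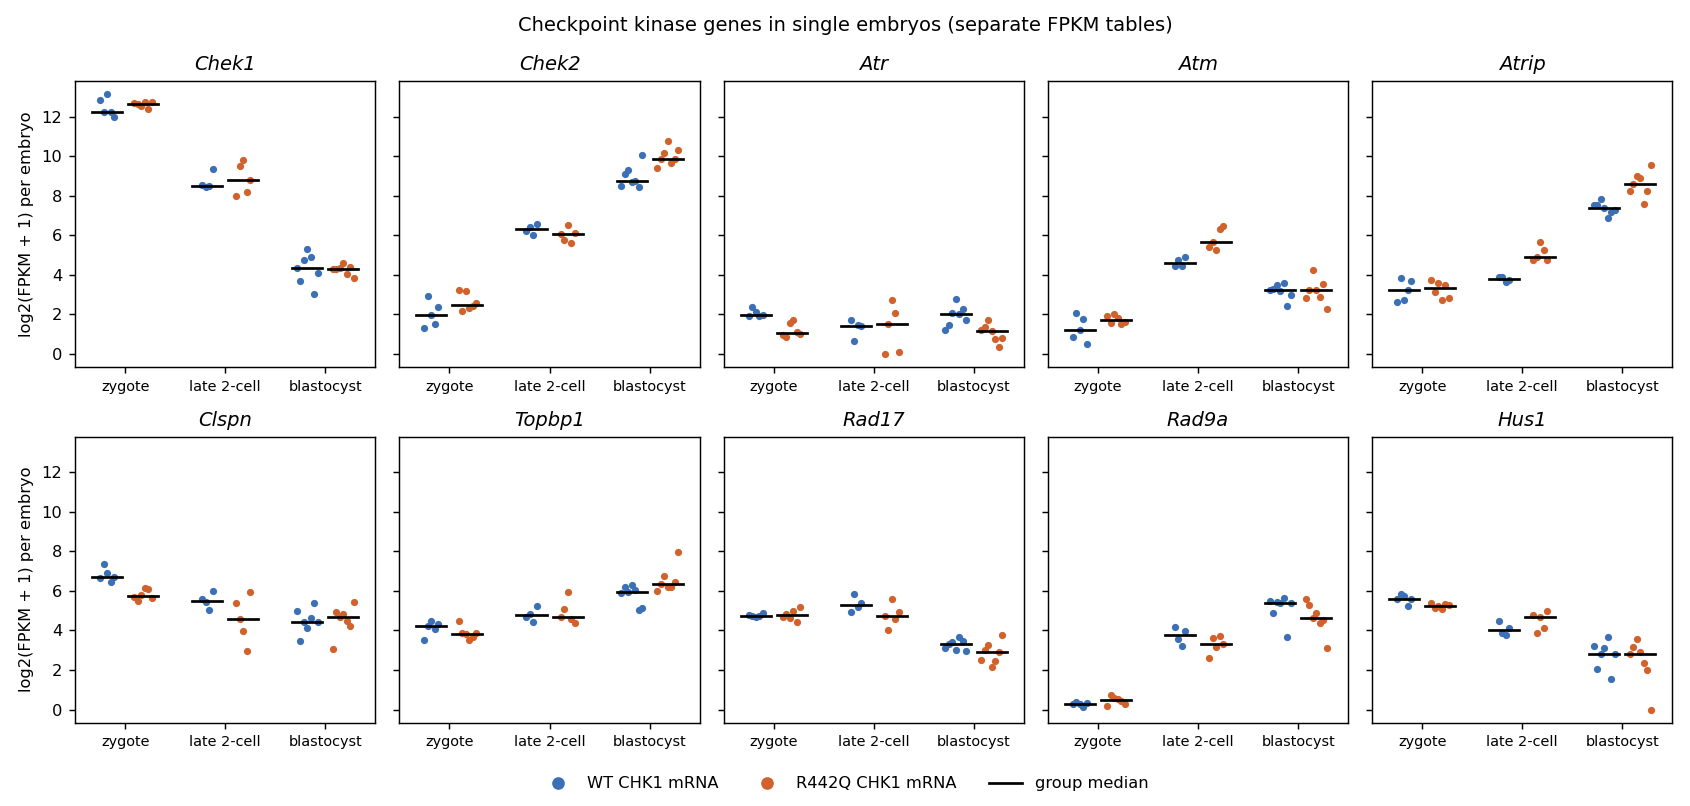
Level of each of the 10 genes as log2(FPKM + 1), 1 panel per gene and 1 point per embryo, by stage and injected CHK1, with group medians as lines. By group median, Chek1 is lower and Chek2, Atrip and Rad9a are higher at each later stage, and Atr stays at or below 5.88 FPKM throughout. For Atrip the WT zygotes and WT late 2-cell embryos overlap. The blastocysts alone were cultured with the CHK1 inhibitor, so stage and inhibitor cannot be told apart there.

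Ordered by mean FPKM, zygotes had Chek1 (6191 ± 1410, SD, n = 11), Clspn (82.3 ± 36.6), Hus1 (41.8 ± 7.67), Rad17 (26.8 ± 4.03), Topbp1 (15.3 ± 3.99), Atrip (8.87 ± 3.004), Chek2 (4.56 ± 2.25), Atr (2.19 ± 1.11), Atm (2.04 ± 0.888) and Rad9a (0.318 ± 0.171). Only Chek1 had a range clear of the next gene. Within single zygotes, each gene from Clspn to Atrip was above the next one in all 11, whereas Chek2 was above Atr in 8 and Atr above Atm in 5. At the late 2-cell stage the order was Chek1 (483 ± 226, n = 9), Chek2 (71.3 ± 15.7), Atm (43.6 ± 24.8), Clspn (36.6 ± 19.3), Rad17 (33.6 ± 12.6), Topbp1 (30.2 ± 12.8), Atrip (24.3 ± 13.1), Hus1 (19.6 ± 6.62), Rad9a (10.7 ± 3.69) and Atr (1.90 ± 1.78). From Chek2 down to Hus1 the neighbours changed places between embryos, with at most 7 of 9 embryos in the stated order. In blastocysts the order was Chek2 (811 ± 413, n = 14), Atrip (292 ± 180), Topbp1 (81.0 ± 52.5), Rad9a (31.6 ± 13.3), Clspn (23.8 ± 10.1), Chek1 (19.7 ± 7.76), Atm (8.54 ± 3.50), Rad17 (7.76 ± 2.61), Hus1 (5.94 ± 3.32) and Atr (2.10 ± 1.49). Clspn was above Chek1 in only 8 of 14 blastocysts, and Rad17 above Hus1 in 7.

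The ratio of CPM to FPKM gives the transcript length that the authors' FPKM assumed, and this differed between stages or genotypes for some genes. For Chek1 it was 953 to 1114 bases in zygotes (median 1045), where the annotated coding sequence of ENSMUST00000034625 has 1428 bases and the transcript 3397. For Atm the median was 4168 bases in zygotes and 1439 in late 2-cell embryos, and for Chek2 it was 706 and 1594. For Rad17 it was 2349 and 2402, and for Rad9a 1892 and 1916. Over genes with a single transcript, 454 in zygotes and 440 in late 2-cell embryos, this length was a median 143 and 122 bases below the annotated one. Atm and Chek2 therefore differ between the stages by another factor in FPKM than in counts, and the tests between stages used counts. In late 2-cell embryos the length of Atm was 1510 to 2221 bases in WT and 1222 to 1439 in R442Q embryos. It was 1399 to 1530 and 1065 to 1345 for Atrip, and 1932 to 1962 and 1870 to 1916 for Rad9a. For these genes R442Q embryos therefore stood higher against WT in FPKM than in counts.

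The first question of the design was how these genes change from the zygote to the late 2-cell embryo. In edgeR's quasi-likelihood test over 4 groups, 8 of the 10 genes passed a Benjamini-Hochberg adjusted p of 0.05 in WT embryos, 5 higher and 3 lower, beside 61.2% of the 16199 genes tested (36.2% higher and 25.0% lower). In R442Q embryos 8 of 10 also passed, 5 higher and 3 lower, beside 65.1% of all genes (35.3% higher and 29.8% lower). The groups did not overlap for 6 of 10 genes in each genotype, beside 56.9% of all genes in WT and 45.5% in R442Q embryos. The median log2 fold change was 0.57 for the 10 genes and 0.34 for all genes in WT embryos, and 0.55 and 0.22 in R442Q embryos. These counts and medians of the 10 genes include Rad9a, which passed the filter on low counts only through the late 2-cell embryos. Under the other scalings the median of all genes lay between 0.24 and 0.43 in WT and between 0.25 and 0.42 in R442Q embryos.

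Chek2 rose 50.9-fold in WT embryos (log2 fold change 5.67 ± 0.34, SE, adjusted p = 5.63e-12) and 21.2-fold in R442Q embryos (4.41 ± 0.29, adjusted p = 1.24e-11). Rad9a rose by 5.55 ± 0.52 in WT and 4.28 ± 0.44 in R442Q embryos, but with 1.51 to 9.55 counts per zygote it passed the filter on low counts only through the late 2-cell embryos, so that its size is loosely set and its call was favoured by the filter. Of the other 9 genes 7 were called in each genotype. Atm rose 4.91-fold in WT (2.30 ± 0.37) and 8.89-fold in R442Q embryos (3.15 ± 0.35). For Chek2 and Atm every late 2-cell embryo was above every zygote of its genotype. The same was so for Rad9a, but the filter favoured this separation as it did the call. Atrip rose 3.06-fold in R442Q embryos (1.61 ± 0.29, adjusted p = 3.89e-05) and did not pass in WT embryos, at 0.55 ± 0.32 with an adjusted p of 0.137.

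Topbp1 rose 1.80-fold in R442Q embryos (0.84 ± 0.23, adjusted p = 0.00255). In WT embryos it rose 1.52-fold (0.60 ± 0.25, adjusted p = 0.0428 by edgeR) and Rad17 rose 1.54-fold (0.62 ± 0.25, adjusted p = 0.0392). Of these last 2 calls, that of Topbp1 held in 2 and that of Rad17 in 1 of the 20 fits that left out 1 embryo, and both were lost with relative log expression scaling, at an adjusted p of 0.0513 and 0.0504. Rad17 had -0.13 ± 0.23 in R442Q embryos.

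Chek1 fell by 3.73 on the log2 scale in WT embryos (SE 0.30, 13.3-fold lower) and by 4.01 in R442Q embryos (SE 0.27, 16.1-fold lower), with no overlap. Hus1 fell by 1.56 in WT (SE 0.24, 2.95-fold lower) and by 1.0 in R442Q embryos (SE 0.21, 2.001-fold lower), again with no overlap. Clspn fell by 0.96 in WT (SE 0.37, adjusted p = 0.0271 by edgeR) and by 0.94 in R442Q embryos (SE 0.33, adjusted p = 0.0162). The WT call of Clspn was lost without late 2-cell WT replicate 3 (adjusted p = 0.0544), and the R442Q call without late 2-cell R442Q replicate 2, 3 or 4 (0.0599, 0.0655 and 0.0701). Atr passed in neither genotype, with -1.34 ± 0.84 in WT and 0.26 ± 0.74 in R442Q embryos. Since Chek1 includes injected mRNA, its fall is that of the sum of injected and embryonic transcript.

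**Figure D3:**
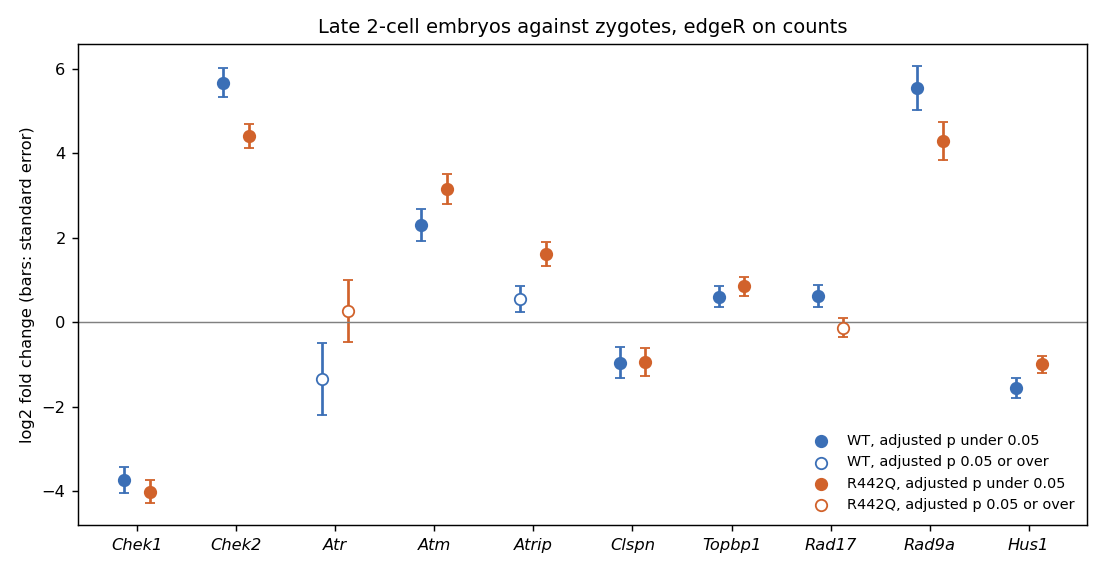
Log2 fold change from zygote to late 2-cell embryo for each of the 10 genes in WT and R442Q embryos, with bars of 1 standard error from edgeR. Chek2 and Rad9a lie near 4 to 6, Chek1 near -4, and Atr has the widest bars.

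Whether the change differed between the genotypes was tested with the interaction term of the same model. It passed for 1 of 10 genes, beside 10.1% of all genes: Chek2 rose less in R442Q embryos, with a difference of -1.26 ± 0.41 (adjusted p = 0.0495 by edgeR). The call was kept in 1 of 20 fits without 1 embryo and by DESeq2 (adjusted p = 0.0463). It was lost with relative log expression scaling (0.0823), with library totals alone (0.0725), with no filter on low counts (0.108) and with Chek1 left out before scaling (0.0784). Rad9a, with the same limit of its zygote counts, had -1.26 ± 0.63 (adjusted p = 0.215), and Atrip had 1.06 ± 0.43 (adjusted p = 0.12 by edgeR, past the threshold at 0.02 in DESeq2). For Clspn the difference was 0.02 ± 0.49.

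In zygotes, the comparison of R442Q with WT embryos asked what the mutant kinase mRNA had changed at the first stage sampled. Clspn fell by 0.73 on the log2 scale (SE 0.14, 1.66-fold lower, adjusted p = 0.00242 by edgeR), from 110 to 181 CPM in WT to 64.1 to 81.4 CPM in R442Q zygotes, with all 6 R442Q zygotes below all 5 WT zygotes. Atr fell by 0.95 (SE 0.27, 1.93-fold lower, adjusted p = 0.0294), from 10.6, 15.1, 20.5, 12.6 and 8.78 CPM in WT to 3.62 to 9.54 CPM in R442Q zygotes, where the groups overlapped, although in FPKM they did not. These were the 2 genes called among 9 tested, both lower, beside 13.2% of the 12420 genes tested (6.3% higher and 6.92% lower). The groups did not overlap for 1 of the 9, beside 8.73% of all genes (4.73% with R442Q below), and the median log2 difference was -0.09 for the 9 genes and 0.01 for all.

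Clspn was called in all 11 fits that left out 1 zygote, whereas in the model of 4 groups its adjusted p was 0.364. That model called 270 of 16199 genes between the zygote genotypes, against 1643 of 12420 in the fit of zygotes alone. Atr was called in 6 of those 11 fits. It was lost without WT replicate 2 (adjusted p = 0.0637 by edgeR) or 3 (0.0947) and without R442Q replicate 1 (0.0621), 5 (0.0523) or 6 (0.0578), and its adjusted p was 0.737 in the model of 4 groups. The antisense gene Gm16794 overlaps Atr, had a mean of only 0.574 FPKM in WT and 0.707 in R442Q zygotes, and could not be separated from it if strand was not used. The lower cumulus marker sum in R442Q zygotes moved with these 2 genes, and its part in the result was not tested.

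The other 7 genes did not pass in zygotes. Chek2 was the nearest, with 1.24 to 4.23 CPM in WT and 3.04 to 5.85 CPM in R442Q zygotes, a log2 difference of 0.95 ± 0.37 and an adjusted p of 0.106. Hus1 had -0.23 ± 0.12 (adjusted p = 0.231), Rad17 0.19 ± 0.14, Topbp1 -0.09 ± 0.13, Atm -0.09 ± 0.34 and Atrip 0.03 ± 0.25. Rad9a had 1.51 to 9.55 counts per zygote and was not tested. For Chek1, the injected gene, the difference of mean log2 CPM was 0.24 by an exact two-sided permutation test over 462 splits (p = 0.208, adjusted over the 3 stages 0.623), and edgeR's estimate was 0.20 ± 0.15.

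**Figure D4:**
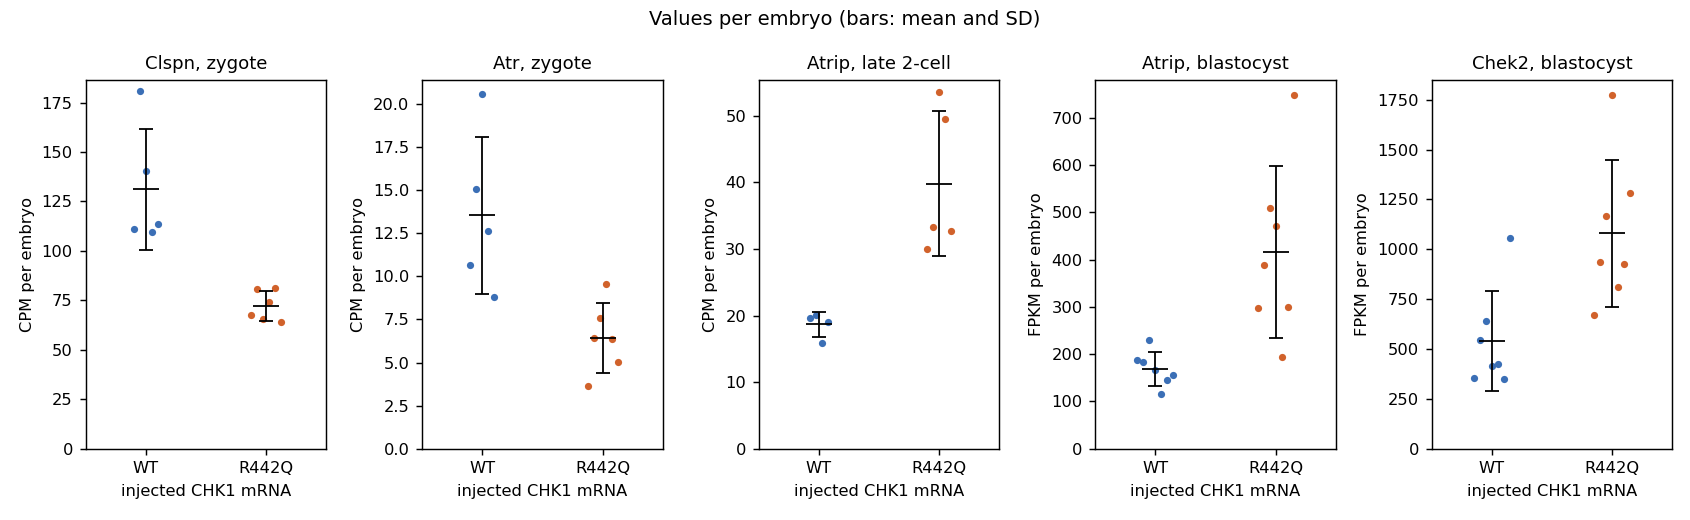
Values of Clspn and Atr in zygotes and Atrip in late 2-cell embryos (CPM), and of Atrip and Chek2 in blastocysts (FPKM), 1 point per embryo with the group mean and SD, for WT and R442Q. Clspn in zygotes is lower in all 6 R442Q embryos, and in blastocysts 1 WT embryo has a Chek2 level within the R442Q range.

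In late 2-cell embryos none of the 10 genes passed in edgeR, beside 4.18% of the 13883 genes tested, or 580 genes. That number depended on single embryos: it was 351, 142, 283 and 209 without WT replicate 1, 2, 3 and 4, 372 without R442Q replicate 2 and 891 without R442Q replicate 3. At an unadjusted p of 0.05, 2 of 10 passed, beside 21% of all genes. DESeq2 and limma on FPKM each called 1 of the 10, Atrip, beside 1664 of 13883 and 652 of 14161 genes. Atrip had 19.6, 20.1, 15.9 and 19.1 CPM in WT and 30.0, 33.2, 53.5, 49.5 and 32.7 CPM in R442Q embryos. All 5 R442Q embryos were above all 4 WT embryos, which was so for 1 of 10 genes in either direction beside 12% of all genes (4.37% with R442Q above). The log2 difference was 1.17 ± 0.35 with an adjusted p of 0.0737 in edgeR. The adjusted p was 0.0145 in DESeq2, 0.0454 in limma on FPKM and 0.0217 in the model of 4 groups, which called 2507 of 16199 genes. The limma fit on FPKM carries the shorter length assumed for Atrip in R442Q embryos. In edgeR on this stage alone the adjusted p of Atrip stayed above the threshold in all 9 fits without 1 embryo, at 0.0809 to 0.172.

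Atm had a log2 difference of 0.84 ± 0.34 (adjusted p = 0.169 by edgeR), and in CPM the groups overlapped, at 37.8 to 56.3 in WT and 50.1 to 108 in R442Q embryos. They did not overlap in FPKM, which assumed a shorter Atm length in the R442Q embryos. Clspn had -0.61 ± 0.48, Rad17 -0.46 ± 0.34, Rad9a -0.43 ± 0.42, Hus1 0.43 ± 0.34, Chek2 -0.24 ± 0.29, Topbp1 0.22 ± 0.33 and Atr 0.71 ± 1.13. The median difference was 0.11 for the 10 genes and 0.07 for all. Chek1 differed by -0.05 in mean log2 CPM (exact permutation p = 0.944 over 126 splits). The higher summed FPKM and the higher oocyte marker sum of the R442Q embryos moved with the values of Atrip and Atm, and their part was not tested.

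In blastocysts, all under inhibitor, none of the 10 genes passed in limma on log2(FPKM + 1), beside 0.00885% of the 11297 genes tested. At an unadjusted p of 0.05, 4 of 10 passed, beside 7.4% of all genes. Atrip had a log2 difference of 1.20 ± 0.25 (adjusted p = 0.118). Only R442Q replicate 5, at 194 FPKM, lay within the WT range, and 6 of 7 R442Q embryos were above every WT embryo. Chek2 had 1.04 ± 0.26 (adjusted p = 0.164 by limma), and here WT replicate 7, at 1055 FPKM, lay among the R442Q embryos while the other 6 WT embryos had 348 to 641. Without that embryo the adjusted p of Chek2 was 0.0365, in a fit that called 30 genes.

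Atr had -0.87 ± 0.32 (adjusted p = 0.458 by limma) and Topbp1 0.78 ± 0.30 (adjusted p = 0.51), and their groups overlapped. The others were Rad9a at -0.50 ± 0.38, Rad17 at -0.39 ± 0.31, Hus1 at -0.35 ± 0.51, Chek1 at -0.04 ± 0.33, Clspn at 0.03 ± 0.36 and Atm at 0.01 ± 0.34. The median was -0.01 for the 10 genes and -0.10 for all. No gene of the 10 had groups without overlap, beside 0.416% of all genes. Chek1 differed by -0.04 (exact permutation p = 0.913 over 3432 splits). The summed trophectoderm markers ranged over 3206 to 24287 FPKM in WT and 1249 to 12872 in R442Q blastocysts, so the embryos of a group differed widely in this respect, and its part in these values was not tested.

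**Figure D5:**
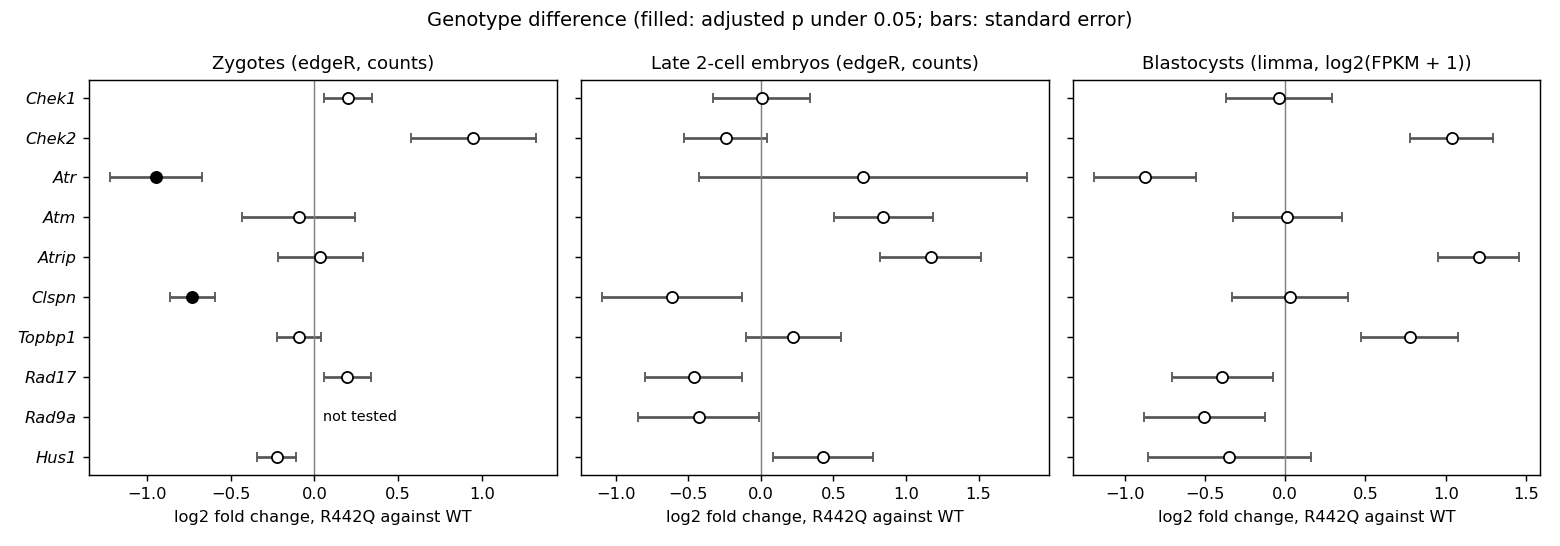
Log2 difference between R442Q and WT embryos for the 10 genes at each of the 3 stages, with bars of 1 standard error, from edgeR on counts in zygotes and late 2-cell embryos and from limma on log2(FPKM + 1) in blastocysts. Filled points mark the 2 genes past the threshold, Clspn and Atr in zygotes.

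Among embryos of the same stage, the level of Chek1 was set against each of the other genes after removing genotype means, 27 relations in all. In blastocysts Chek1 went with Rad9a (r = 0.68, permutation p = 0.00128, adjusted 0.0188; rho = 0.53, adjusted 0.392) and with Hus1 (r = 0.62, permutation p = 0.00139, adjusted 0.0188; rho = 0.61, adjusted 0.352). Without the 2 embryos farthest from the median of Chek1, r was 0.55 for Rad9a and 0.62 for Hus1, and none of the 27 relations passed. By Spearman's rho none passed in the full set either. Over the 20 zygotes and late 2-cell embryos, the log2 CPM profile most like that of Chek1 among 16198 genes was that of Gm7162 (r = 0.99). Ncoa4, Gm36241, Me1 and Ezh2 followed (r = 0.98 each), and all 5 were higher in zygotes than in late 2-cell embryos. Gm7162 was scarce even in zygotes, at a mean of 3.98 CPM in WT and 4.06 in R442Q embryos. Within the group Hus1 was the most like Chek1 (r = 0.86, rank 1755) and Chek2 the least (r = -0.96). These points fall into 2 stage clusters, so the values describe the stage difference.

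The pathway around these genes was followed in 38 further genes: other clamp and ATR activators, the fork protection complex, RPA and the clamp loader, break signalling, the TTT complex that matures these kinases, and targets and antagonists. From zygote to late 2-cell, 24 of 37 tested passed in WT embryos, 9 higher and 15 lower, beside 61.2% of all genes (36.2% higher and 25.0% lower). In R442Q embryos 26 of 37 passed, 7 higher and 19 lower, beside 65.1% of all genes (35.3% and 29.8%). Their median log2 change was -0.03 in WT and -0.81 in R442Q embryos, beside 0.34 and 0.22 for all genes. The largest rises in WT embryos were those of Cdc25c, a phosphatase that activates CDK1 (4.96 ± 0.39), Tti2 of the TTT complex (4.75 ± 0.82) and the RPA subunit Rpa2 (2.46 ± 0.24). The largest falls were those of Timeless, of the fork protection complex (-3.37 ± 0.45), the clamp loader subunit Rfc3 (-2.71 ± 0.40) and the phosphatase Cdc25b (-2.66 ± 0.30). In R442Q embryos Cdc25c and Rpa2 also rose (3.27 and 3.12) and the 3 falling genes also fell (-3.35, -1.99 and -2.70), whereas Tti2 had 0.12 ± 0.67. Tti2, at a mean of 0.647 CPM in WT zygotes, was too low to be tested in zygotes and passed the joint filter through late 2-cell WT embryos (mean 18.2 CPM). Its call and its place among the largest rises were therefore favoured by the filter.

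By list, the WT counts of higher and lower genes were 1 and 0 of 4 tested for clamp and ATR activators, 1 and 1 of 3 for fork protection, and 3 and 3 of 7 for RPA and the clamp loader. They were 1 and 5 of 10 for break signalling, 1 and 1 of 3 for TTT, and 2 and 5 of 10 for targets and antagonists. Between genotypes in zygotes, 9 of 36 passed in edgeR, 6 lower and 3 higher, beside 13.2% of all genes (6.92% lower and 6.3% higher), with a median of -0.08 beside 0.01. The lower genes were Cdc25a, a target of CHK1 (-1.18 ± 0.19, adjusted p = 0.000852), the ubiquitin ligase Rnf8 (-0.85), Brca1 (-0.84), Timeless (-0.68), Btrc (-0.51), which encodes a ligase subunit that marks CDC25A for degradation, and Rad50 (-0.45). The higher genes were Rfc5 (0.56), Rpa3 (0.37) and Tipin (0.33). All 9 were lost in the model of 4 groups, which called 270 of 16199 genes in this comparison. Tipin was kept in 2, Rpa3 in 5 and Brca1 in 9 of the 11 fits without 1 zygote. In late 2-cell embryos 2 of 37 passed, beside 4.18% of all genes: Rpa3 (1.42 ± 0.38, adjusted p = 0.0488 by edgeR) and the break mediator Mdc1 (-1.85 ± 0.45, adjusted p = 0.0334), each kept in 1 of 9 fits without 1 embryo. The median was -0.16 beside 0.07 for all genes. In blastocysts none of 37 passed in limma, and 3 did at an unadjusted p of 0.05 beside 7.4% of all genes, with a median of -0.24 beside -0.10.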

How the data were processed

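RNA from 34 single mouse embryos had been turned into cDNA with SMART-seq2 and into Nextera libraries with Tn5, per the labels' protocols, for an Illumina HiSeq X-10. The authors deposited estimated counts per gene symbol for zygotes and late 2-cell embryos, of which 75.4% and 71.7% of the values above 0 were whole numbers, and FPKM for all 3 stages. The submitters' processing notes name RSEM and mm10. The aligner, annotation and use of strand are not given in the sources used here. Groups and replicate numbers came from sample titles, and no table column was without a sample.

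Estimated counts were rounded to whole numbers and fitted in R 4.3.3 with edgeR 4.0.16 (filterByExpr with a minimum count of 10, TMM scaling, quasi-likelihood test), each stage alone for genotype and 4 groups together for the stage change and its interaction with genotype. Deposited blastocyst FPKM was taken as log2(FPKM + 1) into limma 3.58.1 (trended prior variance), keeping genes that reached an FPKM of 1 in 7 or more embryos. The p-values were adjusted by Benjamini-Hochberg over all genes tested, with a threshold of 0.05. Log2 CPM had a prior count of 2, and a count of 0 was given a floor of 3 counts, which covers counting error only. Chek1 was also compared by exact permutation, and correlations used up to 100000 resamples in Python 3.11.15. Alternatives included DESeq2 1.42.0, limma on deposited FPKM, other scalings, filters and pseudocounts, a replicate block and leaving out each embryo. The fits were tested on simulated data. No pair of libraries held identical values. Positions are those of GENCODE M21 on GRCm38, and promoters those of RefSeq. Besides the 10 genes, the text names pathway genes past the threshold in a genotype comparison, the 3 largest rises and falls among those past it in WT embryos, and the 5 genes most like Chek1. Members and lists were chosen with earlier results of these data known. The marker lists not given with the results had summed FPKM in blastocysts of 113 to 400.2 (WT) and 77.4 to 292 (R442Q) for 5 epiblast genes and 14.3 to 227 and 8.84 to 73.2 for 4 primitive endoderm genes.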

Additional observations from a re-analysis of the deposited data

Results flagged for a closer look

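Among 60 groups of 4 to 7 embryos, 6 had 1 embryo of the 10 genes' values set apart from the rest by a gap that is large for the group's range, and chance sets about 1 in 20 groups apart in this way. Atm was lowest in zygote WT replicate 5, at 1.29 log2 CPM. Rad9a was lowest in zygote WT replicate 4, at -1.01 log2 CPM. Chek1 was highest in late 2-cell WT replicate 4, at 9.41 log2 CPM. Topbp1 was lowest in late 2-cell WT replicate 3, at 5.63 log2 CPM. In blastocysts Rad9a was lowest in WT replicate 6, at 3.66, and Topbp1 was highest in R442Q replicate 7, at 7.98, both as log2(FPKM + 1).

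By edgeR's interaction test of the change from zygote to late 2-cell embryo, Chek2 passed, 1 of the 10 genes (-1.26, adjusted p = 0.0495). Its call was kept in 1 of 20 fits without 1 embryo and in 1 of 6 other settings. Of the 37 pathway genes tested, 4 passed. Both counts lie near the 10.1% of all genes that passed. These 4 pathway genes were Mdc1 (-1.71), Tti1 (-2.06), Tti2 (-4.63) and Cdc25c (-1.69), each with a lower log2 change in R442Q than in WT embryos. This set of 4 was picked out after the values were seen. A lower change is not a lower level at both stages. Mean zygote CPM was higher in R442Q than in WT embryos for Tti1 (135 against 114), Tti2 (1.73 against 0.647) and Cdc25c (8.13 against 4.66). For Mdc1 it was lower (16.5 against 20.9). Without 1 embryo, Tti1 was kept in 9, Cdc25c in 13, Mdc1 in 17 and Tti2 in 20 of 20 fits. Tti2 was too low in zygotes to be tested there and passed the joint filter through late 2-cell WT embryos. Its call was therefore favoured by the filter, and its 20 fits add no support.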

How the results depend on the processing

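The number of the 10 genes past the threshold moved as follows. For the genotype difference in zygotes it was 2 (over all genes 1643 of 12420), but 1 with the replicate block (1217 of 12420). It was 1 to 2 when 1 embryo was left out (1125 to 1718 over all genes). It was 0 in the model of 4 groups, which called 270 of 16199 genes. In late 2-cell embryos it was 0 (over all genes 580 of 13883), but 1 with DESeq2 (1664 of 13883), limma on FPKM (652 of 14161) or the model of 4 groups (2507 of 16199). In blastocysts it was 0 (over all genes 1 of 11297), and 0 to 1 with 1 embryo left out (0 to 30 over all genes). For the WT stage change it was 8, but 5 of the 9 others with Chek1 left out before scaling, 6 with relative log expression scaling, no filter or the replicate block, and 6 to 7 with 1 embryo left out. Over all genes the WT stage change called 9920 of 16199, 9976 of 16172 with Chek1 left out and 9945 of 16199 with relative log expression scaling. It called 10414 of 31286 with no filter, 9342 of 16199 with the replicate block and 9306 to 10279 with 1 embryo left out. For the interaction the number of the 10 genes was 1, but 2 with DESeq2 and 0 to 1 with 1 embryo left out. It was 0 with Chek1 left out before scaling, relative log expression scaling, library totals, no filter or the replicate block. Over all genes the interaction called 1639 of 16199, 2446 with DESeq2 and 1089 to 2311 with 1 embryo left out. It called 1613 of 16172 with Chek1 left out, 1624 with relative log expression scaling and 1578 with library totals. With no filter 1437 of 31286 genes passed, and with the replicate block 1085. The 2 correlations with Chek1 became 0 without the 2 embryos farthest from its median.

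Small estimates changed sign. The exact test's Chek1 difference in late 2-cell embryos was 0.16 on FPKM and -0.20 to 0.13 with 1 embryo left out, and in blastocysts it was -0.25 to 0.13. In the fits over all genes the late 2-cell Chek1 difference was -0.0016 in DESeq2 and also with relative log expression scaling, -0.043 in the model of 4 groups, -0.059 with no filter, -0.037 with the replicate block and -0.18 to 0.21 with 1 embryo left out, and in blastocysts it was 0.0057 with TMM scaling. For zygotes Atm was 0.46 on FPKM, 0.10 with the replicate block and -0.34 to 0.030 with 1 embryo left out, and Atrip was -0.089 to 0.16. For late 2-cell embryos Atr was -0.0096 on FPKM and -0.087 to 1.08 with 1 embryo left out. For blastocysts with 1 embryo left out, Hus1 was -0.55 to 0.051, Atm -0.17 to 0.17 and Clspn -0.14 to 0.27. The R442Q stage change of Rad17 was 0.082 with library totals and -0.26 to 0.068 with 1 embryo left out, that of Atr -0.37 with the replicate block and -0.55 to 0.57, and that of Tti2 -0.049 with the replicate block and -0.078 to 0.46. The interaction of Clspn was -0.17 with the replicate block and -0.13 to 0.40. The cause of these changes was not tested.

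The replicate numbers of the sample titles gave no sign of pairing, over 5, 4 and 7 same-numbered pairs. The deviations of same-numbered embryos correlated at -0.08 to 0.05 in zygotes, -0.17 to 0.24 in late 2-cell embryos and -0.18 to 0.23 in blastocysts. Embryos with different numbers had -0.13 to 0.09, -0.27 to 0.22 and -0.23 to 0.28. So few pairs cannot show that embryos shared no session. The sample descriptions number some zygotes and late 2-cell embryos otherwise, and by those numbers, checked after seeing the data, the correlations were -0.08 to 0.06 over 5 zygote pairs and -0.17 to -0.08 over 3 late 2-cell pairs. With the replicate block, Atr in zygotes had an adjusted p of 0.0655 in edgeR, Rad17 and Topbp1 in the WT stage change 0.0793 and 0.0986, and 58 genes in place of 580 were called in late 2-cell embryos and 1085 in place of 1639 for the interaction. Over all genes the zygote comparison called 270 in the model of 4 groups, of which 73% were higher, and 1642 by limma on FPKM, of which 25% were higher, against 47.7% of 1643. The late 2-cell comparison called 1664 with DESeq2 (44.2% higher), 652 on FPKM (40.5%), 889 with no filter and 2507 in the model of 4 groups, against 29.3% of 580 higher. The interaction called 2446 with DESeq2 (46.4% higher), and 43.5%, 42.2% and 40.1% of its calls were higher with relative log expression scaling, Chek1 left out and library totals, against 30.3%, and it called 1089 without zygote WT replicate 2.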
